A study of Rattus norvegicus with 20 samples.

Results

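Lexm, Lypd8, Vgf, Slc10a4, Spata48, Ppp1r32 and Kif5c are 7 genes of the rat kidney table that had been picked, from these same libraries, as transcripts near absent in Sham or HS kidneys and strongly raised in RM, HS or RM-HS kidneys. They were found by their symbols, which matched 7 of the 34681 rows of the table, and 7 of 7 were among the 15954 rows tested after a filter on low values. The values that chose them are therefore their levels against Sham and HS, and these are given as a description, without a test. Lypd8, Vgf and Slc10a4 were at 0 in most Sham libraries, Spata48 was at 0 in 4 of 5 HS libraries, and Lexm was low but above 0 in every Sham library. Ppp1r32 was above 0 in every library of every group, and Kif5c was low in every HS library but high in 3 of 6 Sham libraries.

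The study asks which transcripts change in rat kidneys injured by trauma, and measured messenger RNA of whole frozen kidney by stranded, paired-end sequencing. The 20 libraries were 3 of RM-HS, 6 of RM, 5 of HS and 6 of Sham, and what RM and HS abbreviate is not in the labels. The sources do not give strain, sex, age, dose, time after injury or any agent common to all 4 groups. By the design text there were 19 libraries, 5 of them RM, but 6 are labelled RM, and each of these 6 is included. Whether 2 libraries can stem from the same animal is not stated, so a p-value here measures the spread between samples, part of which may be technical. In whole kidney, fewer cells of a type and less RNA per cell cannot be told apart.

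Several of these genes are known from cells that are rare in or foreign to the kidney. Motile cilia and sperm tails are built on an axoneme, a ring of doublet microtubules stabilised by proteins on and inside the tubules, and Lexm, Spata48 and Ppp1r32 carry the RefSeq names Cimap2, Spmip7 and Saxo4, after ciliary, sperm and axonemal microtubules. Vgf, Slc10a4 and Kif5c are best known from neurons and endocrine cells, where they serve as a secreted peptide precursor, a synaptic vesicle protein and a motor of axonal transport. Lypd8 is known from the colon of mice, where it coats the epithelium and binds flagellated bacteria.

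Each library held 45 to 109.9 M reads, of which 23.3 to 51.9 M lay outside 14 mitochondrial rows. All 10 kidney tubule identity genes were tested and none was at 0 in any group. Library names begin with R or S. All RM-HS and Sham libraries begin with R, RM has 1 R library (RM 1) and 5 S libraries, and HS has 3 R and 2 S libraries. What the letter stands for is not given in these sources. Among the Sham libraries the summed early proximal tubule markers were 272270 in Sham 1 and 292249 in Sham 6 but 66095 to 112738 in the other 4, so the fold changes below were also computed against those 2 libraries. Levels are DESeq2-normalized read counts, which are not divided by gene length, so levels of different genes are not compared. Fold changes are log2 of value + 1, from 1 limma fit of the 4 group means, with their standard error.

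**Figure D1:**
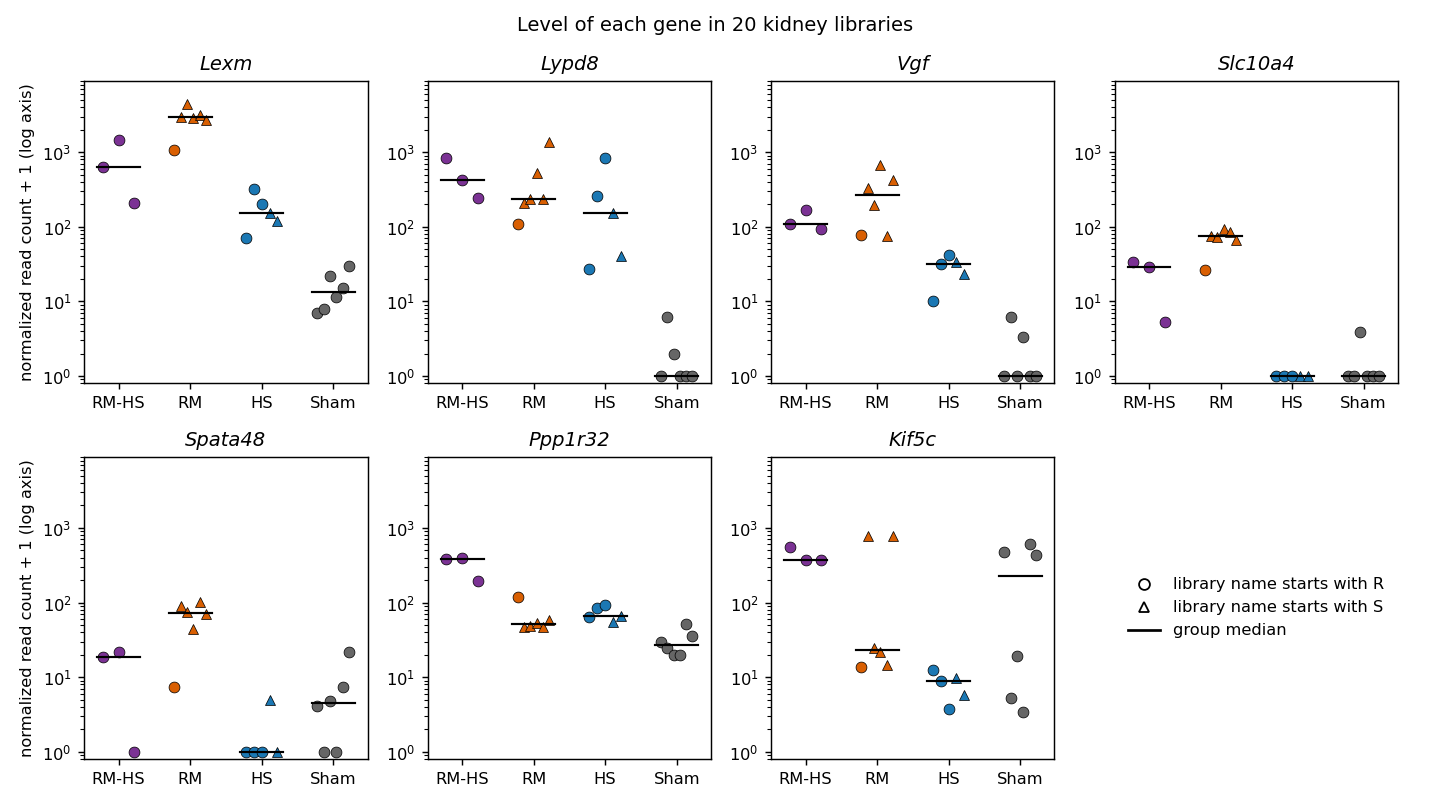
Normalized read count + 1 (log axis) of the 7 genes in each of the 20 libraries, by group in the order RM-HS, RM, HS and Sham. Each point is 1 library. Lexm, Lypd8 and Vgf lie above all Sham libraries in every RM-HS, RM and HS library, Slc10a4 is at 0 in 5 of 5 HS libraries, Ppp1r32 is highest in RM-HS, and Kif5c falls into a high and a low set of libraries within RM and within Sham.

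Lexm (GSRG0025379, rn6 chr5:126196071-126221916), described in the file as lymphocyte expansion molecule, was highest in RM kidneys. Its normalized read count was 634, 1435 and 205 in the RM-HS libraries and 1053 at the lowest, 2935.5 at the median and 4423 at the highest in RM libraries. It was 69.0, 316, 199, 154 and 120.1 in the HS libraries, and 6.08, 12.3 and 29.1 at the lowest, median and highest in Sham. Every RM-HS, RM and HS library lay above every Sham library, while RM-HS 3 fell within the HS range and RM-HS 2 within the RM range. The lowest RM value was that of RM 1, and the other 5 RM libraries lay between 2698 and 4423. The log2 fold change against Sham was 5.39 ± 0.56 in RM-HS, 7.60 ± 0.46 in RM and 3.49 ± 0.48 in HS. Against Sham 1 and Sham 6 alone it was 5.29, 7.50 and 3.39 in the same groups.

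The Lexm promoter is shown because it held 3 of the 6 motifs searched, among them those bound by AP-1 and by antioxidant response factors. It is the RefSeq window of 250 bases before to 50 after the start of Cimap2, on the minus strand of GRCr8 at chr5:126630643-126630942, and coordinates of that build are not comparable with those of rn6. Capitals mark, in order, an E-box (CACGTG) at -117, an AP-1 motif (TGANTCA) at -88 and the core of the antioxidant response element (TGACNNNGC, read on the other strand) at -48, counted from the start.

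Lexm promoter: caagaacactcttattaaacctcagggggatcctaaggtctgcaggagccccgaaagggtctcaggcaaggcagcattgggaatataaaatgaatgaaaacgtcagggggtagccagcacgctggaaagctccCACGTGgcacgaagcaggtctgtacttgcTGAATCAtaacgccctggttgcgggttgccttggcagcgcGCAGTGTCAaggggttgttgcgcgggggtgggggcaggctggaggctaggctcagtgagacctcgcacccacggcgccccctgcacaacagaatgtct

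Motifs were searched on both strands of 33469 RefSeq rat promoters of the same length. The E-box was in 6.42% of them, the AP-1 motif in 7.33% and the antioxidant core in 12.1%. The other motifs searched were the cyclic AMP response element, described with Vgf, the heat shock element pair (GAANNTTC), in 8.59%, and the X-box of RFX factors of cilia, in 0.472%. Matches are a description of letters, not of binding. Among all named genes tested, those whose levels ran most like Lexm over the 20 libraries were Bach1, a haem-binding repressor at antioxidant elements (Pearson r = 0.98), Nepro (0.98) and Txnrd1, thioredoxin reductase (0.97). These correlations are across libraries that share the same 4 groups, and within groups they were 0.79, 0.76 and 0.68. Here and for the genes below, the picks were made by the correlation over all 20 libraries. The within-group values come from those same libraries and are no separate check.

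Lypd8 (GSRG0005393, rn6 chr10:43817947-43828811) belongs to the Ly6/uPAR family of small, disulfide-rich surface proteins. Its level was 837, 427 and 245 in the RM-HS libraries, and 109, 238 and 1373 at the lowest, median and highest in RM. It was 26.6, 257, 838, 152 and 40.03 in the HS libraries. In Sham it was 0 in 4 of 6 libraries and at most 5.16, from 7 reads over the group. The RM-HS, RM and HS ranges overlapped one another and none overlapped Sham. The highest RM library was RM 6 and the highest HS library was HS 3. HS 3 and Sham 2, the highest Sham library, also had the highest summed neutrophil markers of their groups, 9639 and 7107, whereas RM 6 had 14546 and RM 3, with 23600, was the highest in RM. The part of neutrophils in these Lypd8 levels was not tested. The log2 fold change against Sham was 8.20 ± 0.90 in RM-HS, 7.69 ± 0.73 in RM and 6.43 ± 0.77 in HS. The ratio of reads per unit of depth over Sham was 444 in RM-HS, with an exact 95% counting interval of 215 to 1106, 356 in RM (173 to 888) and 238 in HS (115 to 593). These intervals cover counting error in the summed reads, not the spread between libraries, and are too narrow. Of the 7 Sham reads, 6 came from Sham 2. Summed reads weigh the highest libraries most, whereas the log2 fold change averages the logs of all libraries.

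The genes most like Lypd8 were Tagln2 (r = 0.96), an actin-binding protein, Rac1 (0.96), a small GTPase of the actin cytoskeleton, and Pvr (0.96), the CD155 adhesion molecule, and within groups these correlations were 0.86, 0.86 and 0.73. Its promoter window held none of the 6 motifs.

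Vgf (GSRG0008872, rn6 chr12:22677600-22680618) encodes a precursor of secreted peptides of neurons and endocrine cells. Its level was 107, 169 and 92.6 in the RM-HS libraries and 73.2, 263 and 665 at the lowest, median and highest in RM. It was 9.14, 30.6, 41.5, 32.3 and 22.4 in the HS libraries, and 0 in 4 of 6 Sham libraries with a highest value of 5.16. All 3 RM-HS values lay within the RM range, both groups lay above every HS library, and every HS library lay above every Sham library. The log2 fold change against Sham was 6.17 ± 0.71 in RM-HS, 7.04 ± 0.58 in RM and 3.94 ± 0.61 in HS. The Sham level rests on 8 reads.

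The Vgf promoter is shown because it holds the palindromic cyclic AMP response element (TGACGTCA), for which this gene is a textbook example. The window lies on the minus strand of GRCr8 at chr12:25276971-25277270. Capitals mark that element at -90, an E-box at -65 that overlaps an antioxidant core at -61, and a second antioxidant core at 23, past the start.

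Vgf promoter: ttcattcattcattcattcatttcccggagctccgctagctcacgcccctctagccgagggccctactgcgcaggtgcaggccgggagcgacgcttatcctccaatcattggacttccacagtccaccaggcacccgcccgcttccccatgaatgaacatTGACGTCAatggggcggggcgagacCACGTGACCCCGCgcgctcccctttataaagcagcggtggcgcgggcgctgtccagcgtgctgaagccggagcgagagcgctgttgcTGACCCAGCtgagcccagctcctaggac

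The cyclic AMP response element was in 1.83% of the promoters. Genes most like Vgf were Baz1a (r = 0.97), a chromatin remodelling subunit, Fosl1 (0.97), an AP-1 subunit, and Pvr (0.97), with 0.70, 0.74 and 0.82 within groups. Pvr was also among those most like Lypd8, and the levels of Lypd8 and Vgf themselves had r = 0.93 over the 20 libraries and 0.66 within groups.

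Slc10a4 (GSRG0010615, rn6 chr14:37764839-37770059) encodes a vesicular protein of cholinergic and monoaminergic neurons, grouped by sequence with the bile acid carriers. Its level was 32.7, 27.9 and 4.28 in the RM-HS libraries, and 25.4, 73.8 and 91.9 at the lowest, median and highest in RM. It was 0 in 5 of 5 HS libraries and in 5 of 6 Sham libraries, with 2.86, from 3 reads, in Sham 3. RM-HS and RM libraries thus lay above all HS and Sham libraries, and RM-HS and RM overlapped only because RM 1, at 25.4, lay below RM-HS 1 and RM-HS 2. RM-HS 3, at 4.28, and Sham 3 each had 3 reads, so their order comes from the scaling of the libraries alone. The ratio of reads over Sham was 45.1 in RM-HS (14.7 to 225) and 136 in RM (46.3 to 664). With 3 reads over the HS group set in place of 0, the ratio was 37.1 in RM-HS and 112 in RM. These ratios are no lower bounds, since the counts of this gene came in multiples of 3, as described next. The fitted log2 fold change against Sham was 3.78 ± 0.64 in RM-HS, 5.70 ± 0.53 in RM and -0.32 ± 0.55 in HS, and at these low levels it depends on the added 1.

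The recovered counts of Slc10a4 were multiples of 3 in 10 of the 10 libraries above 0. Over all genes 84.3% of the 45315 values of 1 to 12 reads were multiples of 3. A read in this table may therefore not be 1 independent fragment, what it stands for is not given in these sources, and counting intervals, which cover counting error only, are too narrow.

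The Slc10a4 promoter is shown as the contrast to that of Vgf, since it held none of the 6 motifs, which says only that these letters are not in this window. It lies on the minus strand of GRCr8 at chr14:35557835-35558134.

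Slc10a4 promoter: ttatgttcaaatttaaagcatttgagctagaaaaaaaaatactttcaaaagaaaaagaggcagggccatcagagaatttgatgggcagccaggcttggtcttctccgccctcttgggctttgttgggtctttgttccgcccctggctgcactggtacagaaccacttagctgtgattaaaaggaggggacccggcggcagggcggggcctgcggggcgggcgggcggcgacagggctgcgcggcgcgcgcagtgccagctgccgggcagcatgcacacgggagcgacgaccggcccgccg

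Genes most like Slc10a4 were Fasn (r = 0.96), fatty acid synthase, Lhx8 (0.96), a homeobox factor of cholinergic neurons, and Acly (0.95), ATP citrate lyase. Lhx8 too was at 0 in every HS and Sham library, with means of 9.09 ± 8.75 in RM-HS (SD, n = 3) and 22.2 ± 9.80 in RM (SD, n = 6). Fasn averaged 4635 ± 2742 in RM-HS (SD, n = 3) and 12894 ± 2950 in RM (SD, n = 6), and its log2 fold change against Sham was 1.93 in RM-HS, 3.54 in RM and -0.24 in HS. Within groups the correlations of Slc10a4 with Fasn, Lhx8 and Acly were 0.45, 0.63 and 0.53.

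Spata48 (GSRG0010403, rn6 chr14:91588940-91613483), a sperm microtubule inner protein by its RefSeq name, was highest in 5 of the 6 RM libraries. Its level was 17.4, 20.9 and 0 in the RM-HS libraries, and 6.35, 70.7 and 99.9 at the lowest, median and highest in RM. It was 0, 0, 0, 3.92 and 0 in the HS libraries, and 0, 3.43 and 20.6 at the lowest, median and highest in Sham. The lowest RM library was RM 1, the other 5 RM libraries, at 42.7 to 99.9, lay above every library of the other groups, and RM-HS overlapped both HS and Sham. The log2 fold change against Sham was 0.95 ± 1.08 in RM-HS, 3.70 ± 0.89 in RM and -1.48 ± 0.93 in HS. Against Sham 1 and Sham 6 alone, the value for RM-HS was -0.34, with 20.6 in Sham 6 as the highest Sham value. The ratio of reads in RM over HS was 75.6 (29.3 to 279), on 4 HS reads.

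RefSeq gives Spata48 4 starts, and the levels do not tell which was used, so no promoter is printed. Genes most like it were Slc2a5 (r = 0.84), the fructose transporter, Slc48a1 (0.83), a haem transporter, and Pdhb (0.83), a pyruvate dehydrogenase subunit, and within groups these correlations were 0.41, 0.42 and 0.38.

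Ppp1r32 (GSRG0004863, rn6 chr1:226518407-226526954) carries the name of a protein phosphatase 1 regulatory subunit in the file and that of a stabiliser of axonemal microtubules in RefSeq. Its level was 383, 391 and 192 in the RM-HS libraries, and 45.7, 50.3 and 119 at the lowest, median and highest in RM. It was 63.1, 83.9, 92.0, 53.9 and 65.6 in the HS libraries, and 18.8, 26.0 and 50.6 at the lowest, median and highest in Sham. All 3 RM-HS libraries lay above every other library, and all 5 HS libraries but 3 of 6 RM libraries lay above the highest Sham library. The highest RM value was that of RM 1. Group means were 322 ± 112.5 in RM-HS (SD, n = 3), 61.4 ± 28.3 in RM (SD, n = 6), 71.7 ± 15.7 in HS (SD, n = 5) and 29.1 ± 12.1 in Sham (SD, n = 6). The log2 fold change against Sham was 3.44 ± 0.35 in RM-HS, 1.04 ± 0.28 in RM and 1.33 ± 0.30 in HS. Genes most like it were Eif4h (r = 0.85), Smim14 (0.84) and Zswim4 (0.84), and within groups these correlations were 0.28, 0.28 and 0.13.

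Kif5c (GSRG0018753, rn6 chr3:35014187-35254233) encodes a kinesin-1 heavy chain that carries cargo along axonal microtubules. Its level was 559, 365 and 366 in the RM-HS libraries, 12.7, 778, 23.3, 20.4, 13.3 and 788 in RM 1 to RM 6, and 11.6, 7.94, 2.71, 8.81 and 4.80 in the HS libraries. In Sham 1 to Sham 6 it was 481, 4.30, 18.1, 2.35, 614 and 435. The 20 libraries fell into 8 at 365 to 788 and 12 at 2.35 to 23.3, with none between. The high set held 3 of 3 RM-HS, 2 of 6 RM, 0 of 5 HS and 3 of 6 Sham libraries, so the split crossed the groups, and it held 2 of 7 libraries named S and 6 of 13 named R. Of the 15954 rows tested, 33 had a gap at least as wide, 3.92 on the log2 scale, between neighbouring libraries. Of the high Sham libraries, 2 (Sham 1 and Sham 6) were those with the most early proximal tubule signal and Sham 5 was not.

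**Figure D2:**
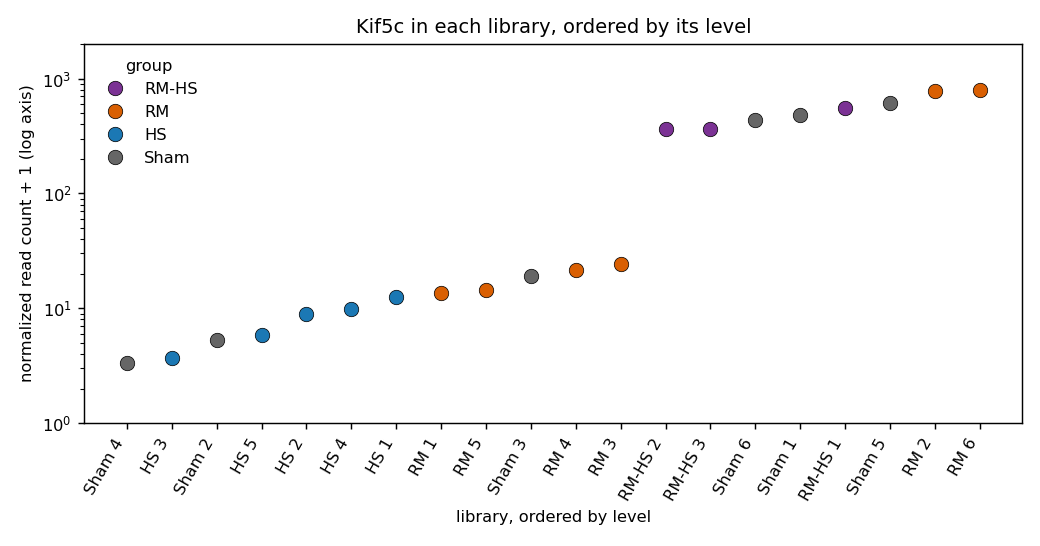
Kif5c in each of the 20 libraries, ordered by its level (normalized read count + 1, log axis), each point 1 library coloured by group. The 12 low libraries end at 23.3 and the 8 high ones start at 365, and Sham and RM libraries stand on both sides.

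The fitted log2 fold change of Kif5c against Sham averages over that split. It was 2.83 ± 1.61 in RM-HS, 0.09 ± 1.32 in RM and -2.98 ± 1.38 in HS, and -0.12, -2.86 and -5.93 in the same groups against Sham 1 and Sham 6 alone. An unnamed row of 27 bases, 1168 bases past the end of Kif5c (rn6 chr3:35255401-35255427), was at 5.14 to 38.02 in the 8 high libraries and 0 to 3.53 in the 12 low ones (r = 0.89 with Kif5c). Named genes most like Kif5c were B3gat1 (r = 0.76), a glucuronyltransferase, Alpl (0.74), alkaline phosphatase, and Plppr3 (0.72), lower than for the other 6 genes, with 0.64, 0.58 and 0.58 within groups.

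The Kif5c promoter is shown because it shares the cyclic AMP response element with Vgf while the levels of the pair had r = 0.07 over the 20 libraries. It lies on the plus strand of GRCr8 at chr3:54441057-54441356, and capitals mark the element at -42.

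Kif5c promoter: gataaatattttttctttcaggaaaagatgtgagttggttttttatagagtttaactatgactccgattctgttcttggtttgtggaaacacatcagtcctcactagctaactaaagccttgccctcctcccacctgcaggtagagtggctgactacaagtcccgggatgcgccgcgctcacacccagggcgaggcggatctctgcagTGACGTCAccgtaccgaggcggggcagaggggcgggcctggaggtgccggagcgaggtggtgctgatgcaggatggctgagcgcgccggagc

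**Figure D3:**
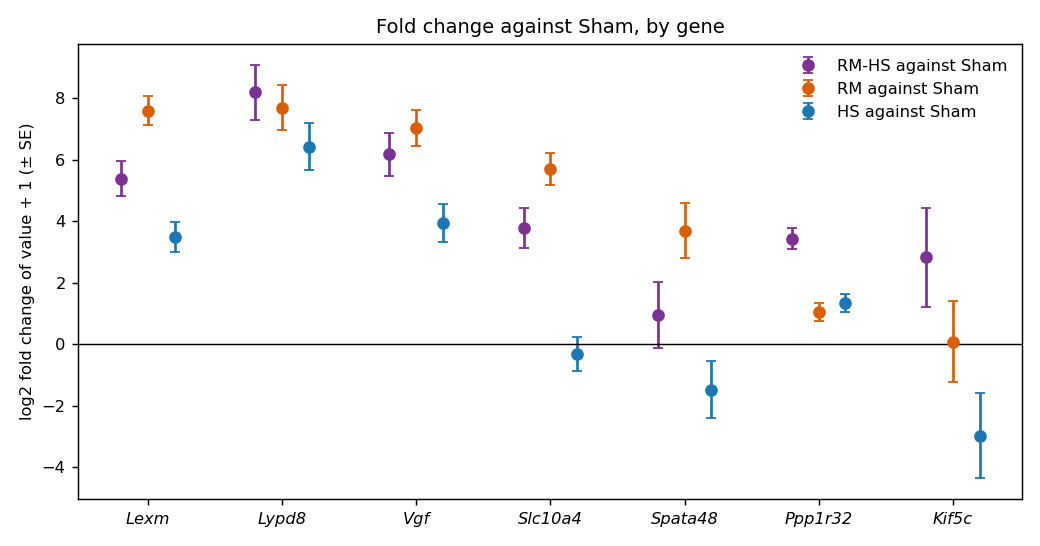
Log2 fold change (value + 1) against Sham with its standard error for each of the 7 genes, in RM-HS, RM and HS from left to right within a gene. Lexm, Lypd8 and Vgf are above 0 in the 3 comparisons, Slc10a4 and Spata48 stand highest in RM, Ppp1r32 in RM-HS, and the bars of Kif5c are the longest.

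Over the 7 genes, all libraries lay above all Sham libraries for 5 genes in RM-HS, for 4 in RM and for 4 in HS. Slc10a4 is among the 5 only by the scaling, since RM-HS 3 and Sham 3 each had 3 reads. The share of all tested genes that lay wholly above Sham was not computed. By limma's calls, a different measure, 21.3% of all tested genes were higher in RM-HS and 42.3% were called in either direction. In RM these shares were 26.2% and 53%, and in HS 23.3% and 46.4%. Since these contrasts chose the genes, nothing is read from those counts. Against HS, the log2 difference in RM-HS was 1.91 ± 0.58 for Lexm, 2.23 ± 0.73 for Vgf and 2.11 ± 0.36 for Ppp1r32, and that in RM was 4.12 ± 0.48, 3.10 ± 0.61 and -0.29 ± 0.30 for the same genes. For Lypd8 the RM-HS and RM values over HS were 1.77 ± 0.93 and 1.27 ± 0.77.

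The difference between RM-HS and RM was not itself part of the choice, but the levels of these genes in RM-HS and in RM were, so it too is a description. In limma 173 of the 15954 tested genes passed it, or 1.08%, with 0.395% higher and 0.689% lower in RM-HS. Of the 7 genes 1, Ppp1r32, was among them, and nothing is read from that count, since its high RM-HS levels were among the values that chose it. The log2 difference of Ppp1r32 was 2.39 ± 0.35, with 3 of 3 RM-HS libraries above 6 of 6 RM libraries. That of Lexm was -2.21 ± 0.56, with 2 of 3 RM-HS libraries below every RM library. Slc10a4 was at -1.91 ± 0.64 and Spata48 at -2.75 ± 1.08. Vgf was at -0.86 ± 0.71, with an approximate 95% interval of -2.25 to 0.52, and Lypd8 at 0.51 ± 0.90, with one of -1.25 to 2.27. Kif5c was at 2.74 ± 1.61.

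RM 1, the only RM library named R, lay outside the range of the other 5 RM libraries for 6 of 7 genes, all but Vgf. It was higher than them for Ppp1r32, lower for the other 5, and inside the RM-HS range for Lexm, Slc10a4 and Spata48. For Kif5c the margin was 12.7 in RM 1 against 13.3 in RM 5, each from 12 reads. The share of all tested genes with RM 1 outside that range was not computed, so nothing is read from the count. With the name letter as a covariate the difference of Ppp1r32 between RM-HS and RM was 1.78, and among libraries named R alone, where RM 1 is the only RM library, it was 1.36. Letter and injury cannot be told apart for the other RM libraries.

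The other genes of each pathway were read from lists, with limma's adjusted p over all tested genes. Beside the percentages called higher given above, 21% of tested genes were called lower in RM-HS, 26.8% in RM and 23.2% in HS. Calls were evenly divided on the authors' scale, with 3395 higher and 3354 lower in RM-HS, 4178 and 4277 in RM, and 3712 and 3698 in HS. Upper quartile scaling shifted the median of all genes by -0.13, -0.14 and -0.12 in those comparisons, and divided the calls into 2586 and 4413, 3249 and 5529, and 2937 and 4695. The medians of all tested genes were -0.03, -0.04 and -0.03. In RM, where 5 of 6 libraries differ from every Sham library in the name letter, calls were also counted with that letter as covariate, which gave 4551 calls over all genes in place of 8455.

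Other genes of the motile cilium and axoneme, the structure after which Lexm, Spata48 and Ppp1r32 are named in RefSeq, were called lower more often than higher. Of 13 tested, 1 rose and 4 fell in RM-HS, 1 rose and 7 fell in RM, and 0 rose and 6 fell in HS, with medians of -0.91, -1.01 and -0.54. Tekt1, a tektin filament protein of cilia, fell in RM-HS, RM and HS, with log2 fold changes of -2.99, -2.04 and -1.77, and Rsph9, of the radial spoke, fell in RM (-0.56) and HS (-0.54). With the name letter as covariate 2 of the 13 fell in RM. With Sham 1 and Sham 6 alone as controls, 3, 4 and 4 fell in RM-HS, RM and HS. There Rsph1, of the radial spoke head, lost its calls at -1.18 in RM-HS and -0.78 in RM, against -1.25 and -0.85 with all controls, and Rsph9 lost its HS call at -0.51. Zmynd10, a dynein arm assembly factor, lost its calls in RM-HS, RM and HS at -0.62, -0.43 and -0.77, against -1.20, -1.01 and -1.35. Of 10 tested sperm and germ cell genes 0 rose in any group, and 1, 5 and 4 fell in RM-HS, RM and HS (medians -1.05, -0.84 and -0.96), among them Tssk1b, a testis kinase (-1.85, -1.35 and -1.72). In RM 0 of the 10 were called with the name letter as covariate, where Tssk1b was at -1.13 and Ldhc, the testis lactate dehydrogenase, at -2.21 against -2.79 without it. With Sham 1 and Sham 6 alone 1 of the 10 fell in RM and Tssk1b, at -1.17, was not called.

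**Figure D4:**
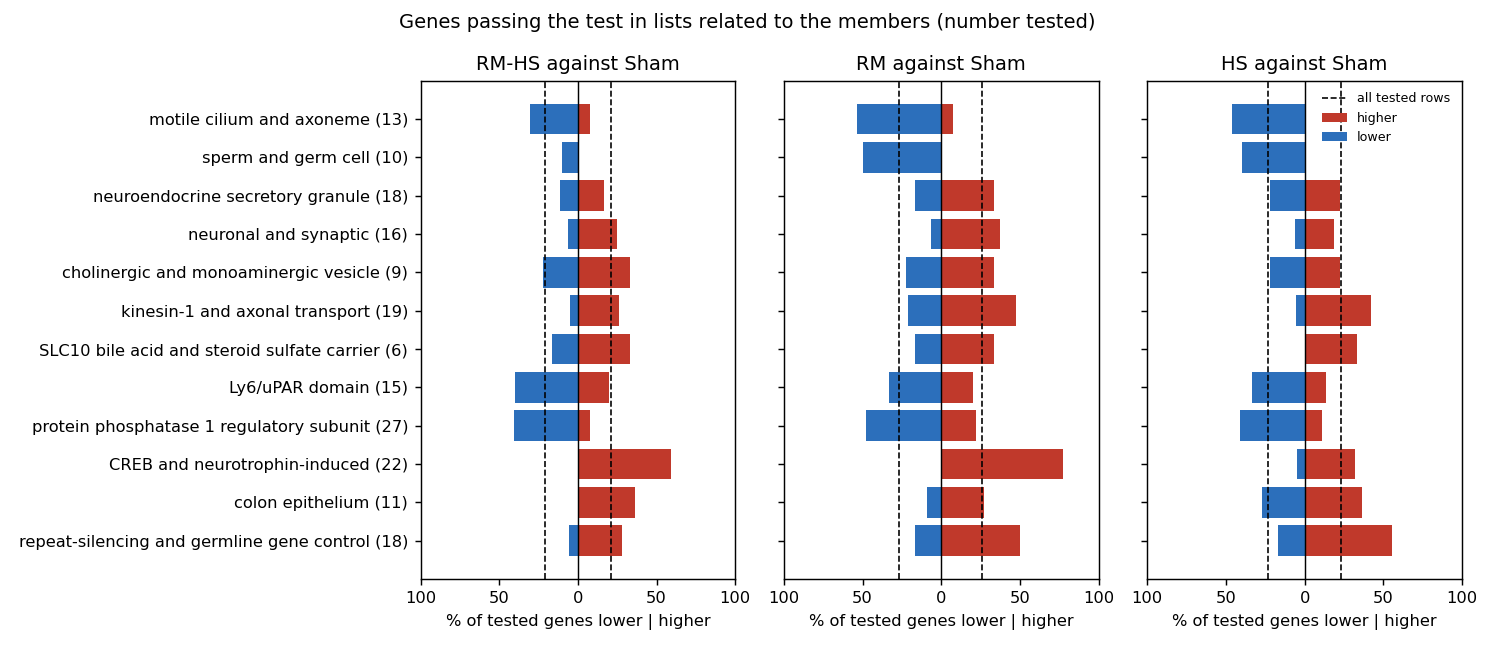
Percent of the tested genes of each list that were called higher (right of 0) or lower (left of 0) than Sham, for RM-HS, RM and HS from left to right. Dashed lines mark the percent of all tested genes called in each direction. Calls were mostly lower in the cilium and sperm lists and mostly higher in the list of cyclic AMP and neurotrophin-induced genes. In RM-HS 4 of 13 cilium and 1 of 10 sperm genes were called lower, beside 21% of all tested genes.

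Genes induced by cyclic AMP or neurotrophins, the class to which Vgf belongs, were counted next. Of 22 tested, 13 rose and 0 fell in RM-HS, 17 rose and 0 fell in RM, and 7 rose and 1 fell in HS. Medians were 1.26, 1.77 and 0.38, and 13 rose in RM with the name letter as covariate. Fosb, an AP-1 subunit, rose by 6.42 in RM-HS, 5.72 in RM and 4.44 in HS, and Crem, a cyclic AMP response element modulator, by 2.05, 2.15 and 1.04. Of 18 neuroendocrine granule genes 3, 6 and 4 rose and 2, 3 and 4 fell in RM-HS, RM and HS (medians 0.42, 0.24 and 0.31). Pcsk1, the convertase that cleaves peptide precursors, rose by 2.31, 2.36 and 2.26, and Rab3a, a vesicle GTPase, fell (-1.19, -1.26 and -1.35). Tac1, the substance P precursor, rose in RM by 5.80. With the name letter as covariate 3 of the 18 rose and 2 fell in RM, and with Sham 1 and Sham 6 alone 1, 1 and 2 fell in RM-HS, RM and HS.

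Among 16 neuronal and synaptic genes, 4, 6 and 3 rose and 1, 1 and 1 fell in RM-HS, RM and HS (medians 0.64, 0.70 and 0.13). With the name letter as covariate 3 rose in RM, and with Sham 1 and Sham 6 alone 4 did. Vamp2, of synaptic vesicles, fell in RM (-0.56) and HS (-0.64) and was at -0.23 in RM-HS without a call. Tubb3, neuronal beta tubulin, rose by 4.01, 4.70 and 2.13, and against Sham 1 and Sham 6 alone was at 1.91 in HS without a call. Nptx2, a neuronal pentraxin, rose by 3.47, 4.27 and 1.5, and in HS was at 1.62 against those controls and at 1.30 with the name letter, without a call in either. Of 15 genes of cholinergic and monoaminergic vesicles 9 were tested, of which 3, 3 and 2 rose and 2, 2 and 2 fell (medians 0.31, 1.02 and 0.44). Among the untested genes, the cholinergic genes Chat and Slc18a3 were at 0 in every group. Slc5a7 averaged 0.997 in HS and 0 in the other groups. Sv2a, a synaptic vesicle protein, fell (-2.58, -2.36 and -2.61), and Ddc, which makes dopamine in neurons and in the proximal tubule, rose by 2.29, 1.91 and 1.52 but was at 0.36 in RM and -0.02 in HS, without a call, against Sham 1 and Sham 6 alone. Against those controls 1, 0 and 0 of the 9 rose, and with the name letter 1 rose in RM.

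The relatives of Slc10a4 and Kif5c were read next. Of 6 SLC10 carriers 2, 2 and 2 rose and 1, 1 and 0 fell in RM-HS, RM and HS (medians 0.26, 0.34 and 0.30). Slc10a2, the apical bile acid transporter, rose by 2.25, 2.51 and 2.12. Its calls in RM-HS and HS were lost against Sham 1 and Sham 6 alone, at 1.54 and 1.41, and its RM call with the name letter as covariate, at 1.25. Slc10a3 rose by 0.37, 0.29 and 0.57. Its calls in RM-HS and RM were lost against Sham 1 and Sham 6 alone, at 0.36 and 0.27, and under upper quartile scaling, at 0.24 and 0.14. Slc10a1, the liver bile acid carrier, fell in RM (-0.94), without a call at -0.48 with the name letter, and Slc10a5 fell in RM-HS (-0.90), without a call at -1.01 against Sham 1 and Sham 6 alone. In the SLC10 list 0 of 6 thus rose in RM-HS with those controls and 0 in RM with the name letter. Slc10a6 and Slc10a7 passed in none of the 3 groups, with log2 values of 0.13 to 0.43. Of 19 kinesin-1 and axonal transport genes 5, 9 and 8 rose and 1, 4 and 1 fell (medians 0.19, 0.24 and 0.16). Under upper quartile scaling 3 rose and 3 fell in RM-HS, 6 rose and 7 fell in RM, and 7 rose and 2 fell in HS. In RM, 5 rose and 1 fell with the name letter, and 4 rose and 2 fell against Sham 1 and Sham 6 alone. Kif5b, the widely expressed kinesin-1 heavy chain, rose by 0.53, 0.83 and 0.97 and against Sham 1 and Sham 6 alone was at 0.098 in RM-HS and 0.40 in RM without a call, while Kif5a, the other neuronal heavy chain, was at -0.47, -0.68 and -0.59 without a call.

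Of 15 other Ly6/uPAR genes 3, 3 and 2 rose and 6, 5 and 5 fell (medians -0.77, -0.48 and -0.96). Plaur, the urokinase receptor, rose by 2.71, 3.01 and 1.31, and Lynx1, a modulator of nicotinic receptors, fell (-1.47, -1.46 and -1.34). Against Sham 1 and Sham 6 alone 2, 1 and 3 of the 15 fell, and with the name letter 1 fell in RM. Colon epithelium genes gave 4, 3 and 4 higher and 0, 1 and 3 lower of 11 (medians 0.74, 0.26 and -0.19), with 1 lower in HS under the name letter covariate and against Sham 1 and Sham 6 alone. Krt20, a keratin of gut epithelium, was 72.8 in RM-HS, 1.85 in RM, 502 in HS and 7.09 in Sham on average, and was higher in RM-HS than in RM by 4.64 (adjusted p = 0.011 in limma), and at 4.41 without a call (adjusted p = 0.21) with the name letter as covariate. Of 27 other protein phosphatase 1 regulatory subunits 2, 6 and 3 rose and 11, 13 and 11 fell (medians -0.24, -0.33 and -0.13). Ppp1r1a, an inhibitor subunit, fell (-3.02, -3.77 and -3.36), and Ppp1r15a, the GADD34 stress subunit, rose by 3.26, 2.91 and 1.21. Against Sham 1 and Sham 6 alone 6, 9 and 6 of the 27 fell, and with the name letter 2 rose in RM.

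Of 18 genes that keep repeats and germline genes silent, 5, 9 and 10 rose and 1, 3 and 3 fell (medians 0.0067, 0.38 and 0.34). Under upper quartile scaling 4 rose and 6 fell in RM-HS, so that the balance turned, and 7 and 9 rose and 4 and 4 fell in RM and HS. In RM 4 rose and 1 fell with the name letter, and against Sham 1 and Sham 6 alone 2, 6 and 7 rose and 1, 1 and 1 fell. Rest, the repressor of neuronal genes in other tissues, rose by 0.63 in RM-HS, 0.83 in RM and 0.99 in HS, and was at 0.51 in RM-HS without a call against Sham 1 and Sham 6 alone. In RM-HS against RM, the calls over the 12 lists were Krt20, given above, and 2 that were lower in RM-HS, Kif1b, a kinesin of vesicle transport, at -0.71 ± 0.15 (adjusted p = 0.029 in limma) and Dnmt1, the maintenance DNA methyltransferase, at -0.73 ± 0.16 (adjusted p = 0.036 in limma). They were at -0.58 and -0.66, without a call, with the name letter as covariate.

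Markers of other cell types were read beside these results. Of 11 neutrophil markers 10 rose in RM-HS, 10 in RM and 3 in HS, and 0, 0 and 1 fell. Their summed level was 9669 to 15740 in RM-HS, 6586 to 23600 in RM, 3132 to 9639 in HS and 2678 to 7107 in Sham, with none at 0. Peripheral nerve and Schwann cell markers summed to 1717 to 2087 in RM-HS, 1936 to 3011 in RM, 1825 to 2407 in HS and 1476 to 2356 in Sham, and 2, 1 and 1 of 10 rose and 3, 2 and 2 fell. Against Sham 1 and Sham 6 alone 2, 4 and 0 of these 10 rose and 0, 1 and 0 fell, so that the balance turned in RM. Adrenal markers, which share the catecholamine genes, summed to 108 to 170 in RM-HS, 87.5 to 215 in RM, 72.6 to 131 in HS and 111 to 236 in Sham. Skeletal muscle markers summed to 374 to 451, 293 to 601, 481 to 557 and 638 to 1069 in the same order. Of 13 T and NK cell markers 2, 3 and 0 rose and 1, 1 and 0 fell. Of 8 podocyte markers 3, 7 and 5 rose and 1, 0 and 0 fell, and their summed level was 9707 to 11314 in RM-HS, 10323 to 13408 in RM, 9642 to 11841 in HS and 3183 to 10724 in Sham, with 10724 and 10211 in Sham 1 and Sham 6 and at most 6969 in the other 4. Against Sham 1 and Sham 6 alone 1, 1 and 0 of the 8 rose. Kidney tubule identity genes summed to 341089 to 437428 in RM-HS, 295608 to 470958 in RM, 304643 to 366005 in HS and 342622 to 546080 in Sham. The part of neutrophils in the levels of Lexm and Vgf was not tested.

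The genes next to each member, chosen after the values were seen, were compared with Sham too. Of the 14 nearest tested genes 4 rose and 1 fell in RM-HS, 5 rose and 2 fell in RM, and 4 rose and 3 fell in HS, with log2 values between -0.68 and 1.48 in RM. Ap1s1, 1.52 kb from Vgf, was at -0.18 in RM-HS, -0.38 in RM and -0.30 in HS.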

How the data were processed

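RNA of frozen kidney was sequenced as stranded, paired-end mRNA libraries, per the labels' protocols. The tools of the authors, per the submitters' processing notes, were FastQC 0.11.2, Picard 1.119, SAMtools 1.0, STAR, the rn6 build, featureCounts of Subread 1.5.0 and DESeq2. The deposited signal values are read counts normalized by the authors with DESeq2. Whole reads were recovered from each library's step, and 100% of values came within 0.1 read of an integer; these reads serve the read ratios and the count tests (edgeR on them called 129 genes in RM-HS against RM).

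Of 34681 rows, 14588 were 0 throughout and 18020 had no symbol. A row was tested if 3 or more libraries had a value of 10 or more, as 15954 did, 12967 with a symbol. Libraries were grouped by their labels, and replicate numbers follow the listing order. The test was limma 3.58.1 in R 4.3.3 on log2(value + 1), with a mean-variance trend and the 4 group means over 20 libraries. Calls have a Benjamini-Hochberg adjusted p under 0.05 over all tested rows. The procedure was tested on simulated data. For the 7 genes RM-HS against RM is given as a description, since their levels in both groups entered their choice.

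The 7 genes and the gene lists were chosen with earlier results of these data known. Named besides the 7 genes were the 3 named genes most correlated with each, up to 4 genes of each list by smallest adjusted p, and the Kif5 and Slc10 relatives. Lexm, Spata48 and Ppp1r32 were matched to RefSeq by older symbols, and 6 of 7 genes had a promoter entry. Neighbouring genes, the calls of Krt20, Kif1b and Dnmt1 in RM-HS against RM and the row beside Kif5c were picked once their values were known. Chat, Slc18a3 and Slc5a7 were also named with their values known. Some results are not reported here.

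Alternatives were pseudocounts of 0.5 and 8, no filter, a filter at 50, trimmed-mean and upper quartile scaling, fits of only the groups compared, the name letter as covariate, libraries named R alone, edgeR 4.0.16, DESeq2 1.42.0, and leaving out each library. Sham 1 and Sham 6 alone as controls were added after seeing the data. With at least 23.3 M reads outside mitochondrial rows per library, counting error matters chiefly for Slc10a4, Spata48, the Sham levels of Lexm, Lypd8 and Vgf, and the low libraries of Kif5c.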

Additional observations from a re-analysis of the deposited data

Results flagged for a closer look

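On the scale of normalized counts, within each group of 4 to 10 libraries the highest or lowest value of each of the 7 genes was compared with the gap to its neighbour. Of 21 pairs of a gene and a group, 7 held a library that stood apart. Chance flags about 1 in 20 groups of evenly varying values, a rate that cannot be used for counts as skewed or as often 0 as these. On the log2 scale of value + 1, a comparison added after seeing the data, 4 of the 7 stood apart, and RM 6 and HS 3 for Lypd8 and Sham 6 for Spata48 did not. Lypd8 stood apart at 1373 in RM 6, at 838 in HS 3 and at 5.16 in Sham 2. Ppp1r32 stood apart at 118.6 in RM 1, the only RM library named R. Spata48 stood apart at 3.92 in HS 4 and at 20.6 in Sham 6, and Slc10a4 at 2.86 in Sham 3. The HS 4, Sham 2 and Sham 3 values rest on the few reads of groups otherwise near 0. Groups of 3, as RM-HS is, were not examined in this way.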

How the results depend on the processing

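The number of the 7 genes past the threshold in RM-HS against RM, 1 in limma, was 3 with a pseudocount of 8 and 2 with DESeq2. It was 0 with the name letter as covariate and 0 with libraries named R alone, and 1 to 2 when each library was left out. Over all genes, the 173 calls of that comparison were 499 with DESeq2, 42 with only the groups compared, and 0 with the name letter and with libraries named R alone, where 1183 and 1101 genes had an unadjusted p under 0.05. They ranged from 21, without RM-HS 1, to 480, without RM 1. RM against Sham had 8455 calls, 4551 with the name letter, 766 with libraries named R alone and 5250 with Sham 1 and Sham 6 alone as controls. With those controls HS against Sham had 4105 calls in place of 7410, and RM-HS against Sham 4347 in place of 6749. With libraries named R alone, the RM-HS against RM difference of Vgf turned to 0.61 and that of Spata48 to 0.0083 (log2), with RM 1 as the only RM library. As the levels in both groups entered the choice of the 7 genes, nothing is read from their calls. The causes were not tested.

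Among the descriptive fold changes against Sham, Lexm, Lypd8, Vgf and Ppp1r32 kept their sign under all 32 alternatives in the 3 groups, and Slc10a4 and Spata48 did so in RM. Slc10a4 in RM ranged from 3.11 to 7.05, Spata48 in RM from 0.94 to 4.25 and Kif5c in RM from -2.86 to 0.76. No paired analysis was possible because the labels give no replicate numbers that groups share. Slc10a4, Spata48, the Sham levels of Lexm, Lypd8 and Vgf, and the low libraries of Kif5c rest on few reads, so small differences there were not detectable at this depth.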
